A study of Mus musculus with 2 samples.

Results

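The genes described here are 34 genes of the unfolded protein response and of protein folding in the endoplasmic reticulum (ER), out of 33083 genes counted in single cells of mouse colon. They were picked by symbol, and every one of the 34 was found in the count tables. The study made 1 10x Genomics 3' library from the colon of WT mice and 1 from transgenic mice that model Alzheimer's disease (AD), a line which the series' design text names APP/PS1-21. Cells were freed from the minced tissue with trypsin and DNase I. Age, sex, genetic background, the promoter behind the transgenes and the number of animals in each library are not given in the sources used here. The design text speaks of colonic epithelium and the labels of colon tissue, and the cells held immune and stromal as well as epithelial classes. With 1 library per genotype, no test between genotypes was possible, and a difference between AD and WT below is a difference between 2 libraries.

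The ER folds the proteins that a cell secretes, and professional secretors such as antibody-making plasma cells and mucin-making goblet cells carry a large ER. When unfolded protein builds up there, 3 kinds of membrane sensor respond: IRE1, which splices the mRNA of the transcription factor XBP1, PERK, which slows translation and lets ATF4 be made, and ATF6, which is cut to release a transcription factor. Their targets include chaperones, disulfide isomerases and the machinery that moves misfolded protein out of the ER for degradation (ERAD). Plasma cells depend on XBP1 to enlarge their ER, and gut epithelium has its own IRE1 paralog, IRE1β, encoded by Ern2.

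The promoters of several members carry the ER stress response element (ERSE), a letter pattern of CCAAT, 9 free bases and CCACG that ATF6 and XBP1 are known to use. RefSeq promoters of build GRCm38.p6, 300 bases from 250 before to 50 after the start site, matched 29 of the 34 members and gave 31 promoters. Both strands were searched. The ERSE stood in 8 of the 31 (25.8%) and in 39 of all 32851 promoters in the table (0.119%). ERSE-II, which is ATTGG, 1 free base and CCACG, stood in 2 of the 31 (6.45%) and in 12 of all promoters (0.0365%). The UPRE core TGACGTG was in 1 of the 31 (3.23%) against 2.01% of all promoters, and the short ATF4 element of TGATG, 1 free base and AA was in 2 (6.45%) against 3.97%. None of these patterns overlapped another in a member's promoter, and 18 members with a promoter had none of them. Hyou1, Manf, Ern2, Atf6 and Creb3l1 had no entry. A match is a match of letters and not a measured binding site. The windows below are shown because the patterns they hold are shared by genes whose levels are compared in the rest of the text. They run 5′ to 3′ on the gene's strand, and capitals mark the fixed letters of each pattern. CGTGG and ATTGG set 9 bases apart are an ERSE read on the other strand, TTgCATCA in Herpud1 is the ATF4 element on the other strand, and TGACGTG in Hspa5 is the UPRE core.
Hspa5, chr2:34771913-34772063, plus strand: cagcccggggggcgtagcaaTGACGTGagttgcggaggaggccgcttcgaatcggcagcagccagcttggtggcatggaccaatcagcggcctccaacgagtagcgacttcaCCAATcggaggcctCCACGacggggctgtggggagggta
Hsp90b1, chr10:86705513-86705676, minus strand: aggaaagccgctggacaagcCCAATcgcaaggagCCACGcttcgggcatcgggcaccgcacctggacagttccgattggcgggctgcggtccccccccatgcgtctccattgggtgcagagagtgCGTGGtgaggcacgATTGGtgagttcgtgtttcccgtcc
Dnajc3, chr14:118937807-118937865, plus strand: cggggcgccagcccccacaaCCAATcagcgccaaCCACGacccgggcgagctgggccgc
Creld2, chr15:88819500-88819558, plus strand: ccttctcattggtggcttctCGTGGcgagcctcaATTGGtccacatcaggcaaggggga
Pdia6, chr12:17266471-17266529, plus strand: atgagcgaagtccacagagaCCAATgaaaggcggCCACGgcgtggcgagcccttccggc
Calr, chr8:84847055-84847113, minus strand: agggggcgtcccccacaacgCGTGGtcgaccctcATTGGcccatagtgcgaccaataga
Canx, chr11:50325780-50325838, minus strand: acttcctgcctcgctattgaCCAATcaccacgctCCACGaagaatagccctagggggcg
Syvn1, chr19:6046512-6046570, plus strand: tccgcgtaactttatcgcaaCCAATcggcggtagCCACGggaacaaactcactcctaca
Herpud1, chr8:94386297-94386407, plus strand: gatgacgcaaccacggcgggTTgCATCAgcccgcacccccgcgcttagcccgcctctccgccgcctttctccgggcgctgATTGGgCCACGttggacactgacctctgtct

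The ERSE nearest a start site began 44 bases before that of Syvn1, and the farthest 212 bases before that of Hsp90b1, whose promoter held 2 ERSEs. Hspa5 carried its UPRE core 157 bases and its ERSE 65 bases before the start. Calr and Canx, the lectin chaperones, carry the same element as Hspa5 and Creld2, and their levels in plasma-like cells are set side by side below.

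The libraries held 4146 barcodes and 26898149 UMIs (unique molecular identifiers, each 1 counted transcript) for WT, and 6675 barcodes and 38731915 UMIs for AD. Of these, 1550 WT and 4691 AD cells were kept, with a median of 3724.5 and 3720 UMIs per cell. Mitochondrial UMIs passed the 25% limit in 60.4% of WT and 29.2% of AD barcodes. The libraries shared 7 barcodes, 2 of them among the kept cells. Clusters were built without the members and named by markers. The plasma-like class (51 WT and 876 AD cells) was led by Iglc2, Jchain and Tnfrsf17, and the goblet-like class (108 and 518 cells) by Clca1, Spink4 and Fcgbp. Other classes were enteroendocrine-like (59 and 62), colonocyte-like (102 and 417), the remaining epithelial cells (286 and 553), B-like (227 and 479), lymphocyte-like (247 and 466), macrophage and monocyte-like (54 and 173), fibroblast-like (239 and 804), endothelial-like (99 and 82) and smooth muscle-like (25 and 59). Enteric glia-like (39) and erythroid-like cells (21) were too few to be used as classes. A further 189 AD cells stayed unnamed, with Igha at 55.8% of its level in AD plasma-like cells. Doublet calling marked 4 cells in each library and has not worked, so doublets were not removed.

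Plasma-like and goblet-like cells carried the largest shares of member transcripts among the 11 named classes. The 34 members together made up 158 of every 10000 UMIs in WT and 152 in AD plasma-like cells. They made up 114 and 101 in goblet-like cells, and between 30.4 and 60.8 in the other named classes. Immunoglobulin and J-chain transcripts fill a large part of a plasma cell's UMIs, and without them the plasma-like values were 247 and 242. Cell by cell, after every cell was thinned to 1000 UMIs, the median was 13.5 member UMIs (quartiles 9 and 18) in WT and 14 (11 and 18) in AD plasma-like cells. Goblet-like cells had medians of 10 and 9, and every other named class had medians of 3 to 6. The unnamed AD cells held 97.1 member UMIs per 10000, beside their high Igha.

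**Figure D1:**
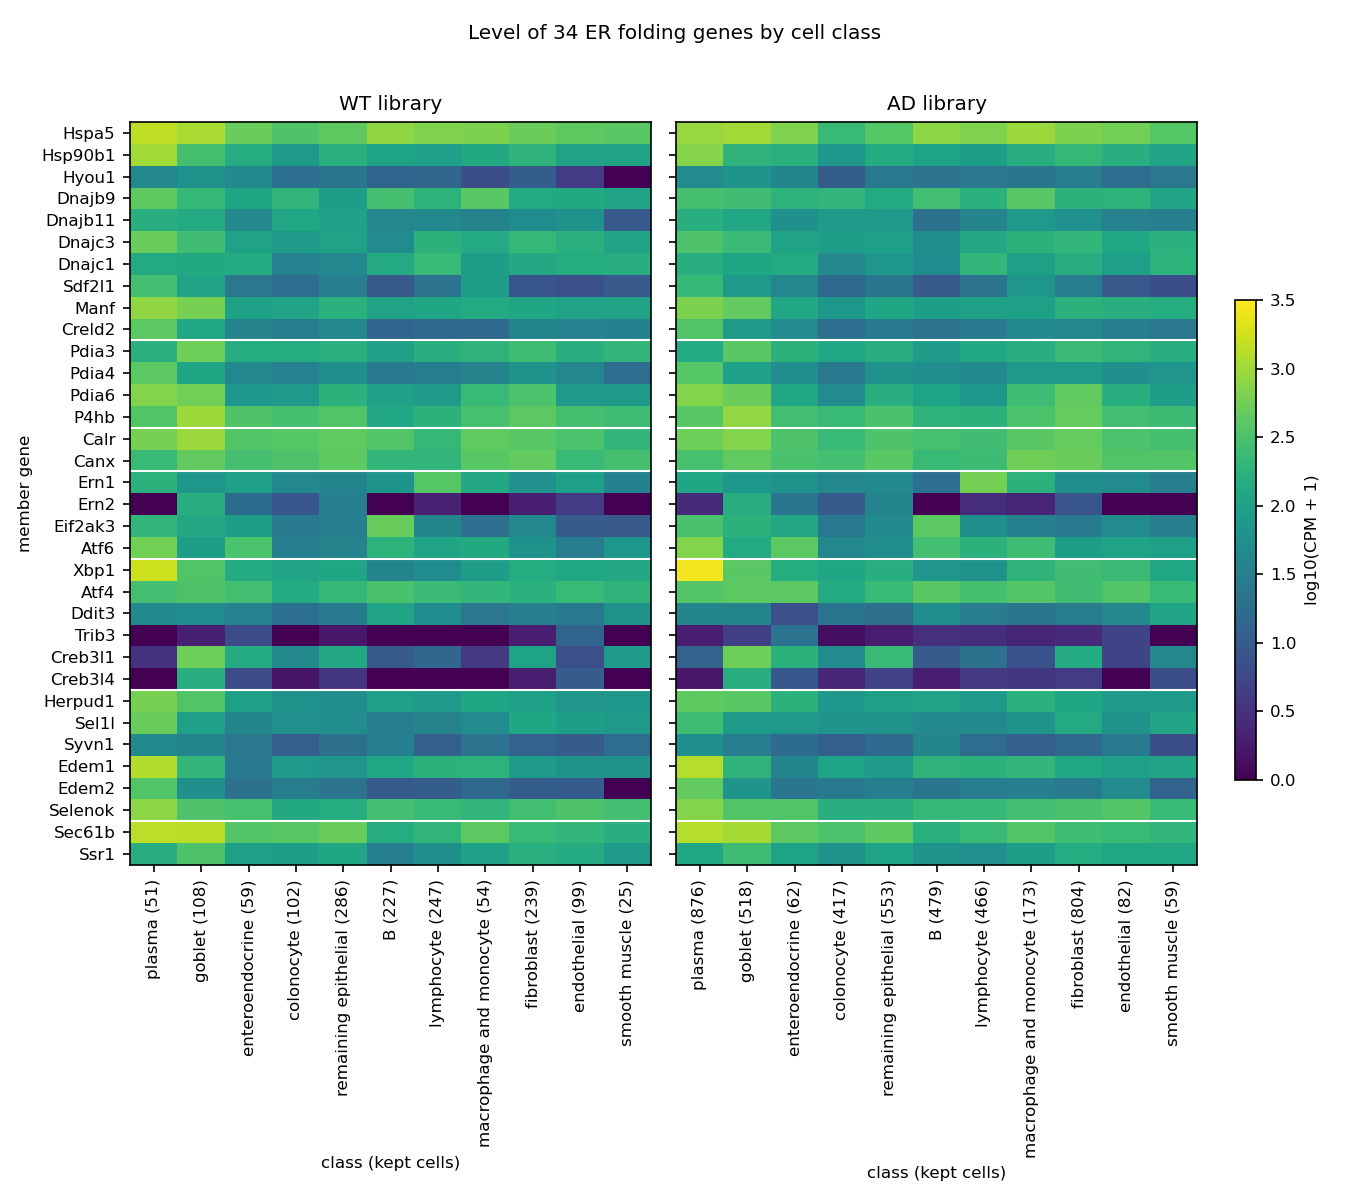
Level of each of the 34 members (rows, grouped by role with white lines between roles) in the 11 named classes (columns) of the WT library and the AD library, as log10 of CPM (UMIs scaled to a fixed total) plus 1. The plasma-like and goblet-like columns are the brightest for most members, while Ern2, Creb3l1 and Creb3l4 are bright in goblet-like and dark in plasma-like cells.

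In the plasma-like class, most members stood above the rest of the library. Levels are given as CPM, the UMIs of a gene per 1000000 UMIs, over the summed cells of a class, and a ratio as log2 with an exact 95% interval that covers counting error only. A gene was called past 2-fold where it had at least 30 UMIs over both sides. In WT, 20 of the 33 members tested were higher in plasma-like cells than in all other kept cells and 3 were lower, against 5.83% and 41.3% of all genes. In AD, 17 of 34 were higher and 4 lower, against 7.27% and 49.9% of all genes. The median log2 ratio of the members was 1.39 in WT and 1.04 in AD, and that of all genes was -0.89 and -1.0. The same 17 members were higher in both libraries. With immunoglobulin UMIs taken out of the totals, the median of all genes moved to -0.31 and -0.34. Then 24 and 25 members were higher, against 12% of all genes in WT and 13.5% in AD.

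Among the 10 luminal chaperones and cofactors, 7 were higher past 2-fold in WT and 5 in AD, and none was lower. Creld2, an ER-resident isomerase-like protein, was at 418 CPM in plasma-like and 48.0 in other cells of WT, and at 348 and 43.4 in AD. Its log2 ratio was 3.12 (2.88 to 3.36) in WT and 3.0 (2.90 to 3.11) in AD. Hsp90b1, the ER member of the HSP90 family and a chaperone of many secreted and membrane proteins, was at 1023 against 162 CPM in WT and 736 against 146 in AD. Both libraries thus placed these chaperones well above the 2-fold line. The HSP70 cofactor Sdf2l1 had log2 ratios of 2.93 and 2.59, and the secreted ER stress factor Manf of 1.97 and 1.71. Dnajc3, which helps HSPA5 and binds PERK, had 1.76 and 1.14.

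Hspa5 (BiP), the ER's main HSP70 chaperone and the repressor of the sensors, differed less between classes. It was at 1450 CPM in plasma-like and 581 in other cells of WT (log2 ratio 1.32, 1.20 to 1.44). In AD it was at 912 and 593 (0.62, 0.58 to 0.66), under the 2-fold line. Dnajb9, a cofactor that favours disposal of misfolded protein, followed the same pattern, with 1.46 in WT and 0.51 in AD. The cofactors Hyou1, Dnajb11 and Dnajc1 stayed between 0.58 and 0.95 in both libraries. These calls depended on the total used. Without immunoglobulin UMIs, Hyou1 had 1.33 and 1.27, Dnajb11 1.46 and 1.61 and Dnajc1 1.22 and 1.46, all past 2-fold. The AD values of Hspa5 and Dnajb9 were then 1.28 and 1.17, also past it.

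The 4 disulfide isomerases split evenly. Pdia4 was at 418 against 57.9 CPM in WT (log2 ratio 2.85) and at 376 against 66.6 in AD (2.50), and Pdia6 had 1.69 and 1.49. Pdia3, which works on glycoproteins with the lectin chaperones, had -0.39 and -0.64. P4hb, the founding protein disulfide isomerase and a subunit of collagen prolyl hydroxylase, had -0.23 and -0.16. Both of the latter signs turned positive without immunoglobulin UMIs, at 0.25 and 0.02 for Pdia3 and 0.41 and 0.50 for P4hb.

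The lectin chaperones, which hold newly made glycoproteins until they are folded, were not past 2-fold in either library. Soluble Calr was at 599 against 472 CPM in WT and 525 against 418 in AD (log2 ratios 0.34 and 0.33). Membrane-bound Canx was at 225 against 376 and 301 against 385 (-0.74 and -0.35), and its AD value became 0.31 without immunoglobulin UMIs. Of the 8 members with an ERSE in the promoter, 6 were higher past 2-fold in WT and 5 in AD, and Calr and Canx were in neither count. Of the 18 members with none of the patterns, 11 were higher in WT and 9 in AD.

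The 4 sensors went in different directions. Atf6 was at 570 CPM in plasma-like and 74.0 in other cells of WT, and at 716 and 109 in AD (log2 ratios 2.95 and 2.71). Eif2ak3, which encodes PERK, had 1.52 and 1.80. Ern1, the widely expressed IRE1α, was at 179 against 77.1 CPM in WT (1.22) and at 116 against 79.2 in AD (0.56). Its epithelial paralog Ern2 had 0 UMIs in WT plasma-like cells, which puts it at least 6.08-fold lower than the 40.3 CPM of the other cells, with 3 counts over the class as the floor. In AD it had 12 UMIs, or 1.69 CPM, against 49.2 (log2 ratio -4.86, -5.82 to -4.05).

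Among the transcription factors, Xbp1 was the one past 2-fold higher. It was at 1715 CPM in plasma-like and 151 in other cells of WT, and at 2740 and 240 in AD, with log2 ratios of 3.5 (3.38 to 3.63) and 3.51 (3.47 to 3.55). Thinned to 1000 UMIs, 72.9% of WT and 87.9% of AD plasma-like cells held an Xbp1 UMI, against 2.42% and 5.83% of B-like cells. Downstream of PERK, neither Atf4 nor Ddit3 was called. Atf4 had log2 ratios of 0.31 and 0.40, and its target Ddit3 (CHOP), a factor tied to stress-induced cell death, had 0.42 and 0.44. Without immunoglobulin UMIs, Atf4 had 0.95 and 1.06 and Ddit3 1.06 and 1.10. On that scale Ddit3 was past 2-fold in both libraries and Atf4 in AD. Counts of UMIs do not show Xbp1 splicing or the translation of Atf4, which is where these factors are mainly controlled. Trib3, a pseudokinase induced by ATF4 and CHOP, had 0 UMIs in WT and 7 in AD plasma-like cells. It was not tested in WT, and in AD its log2 ratio was -1.06 with an interval of -2.44 to 0.09.

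Creb3l1 and Creb3l4, membrane-tethered relatives of ATF6, were lower in plasma-like cells. Creb3l1 had 1 UMI in WT and 85 in AD plasma-like cells, or 2.21 and 12.0 CPM, against 159 and 220 CPM in the other cells. Creb3l4 had 0 and 5 UMIs. Its level was at least 4.03-fold lower in WT, on the same floor, and its log2 ratio in AD was -5.84.

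All 6 ERAD members were higher past 2-fold in both libraries. Edem2 and Edem1 trim mannose from glycoproteins marked for disposal. Edem2 was at 354 against 24.5 CPM in WT and 456 against 41.7 in AD (log2 ratios 3.85 and 3.45). Edem1 was at 1251 against 102 and 1295 against 144 (3.61 and 3.17). Sel1l, the adaptor of the ubiquitin ligase complex, had 2.92 and 1.75, and the ligase itself, Syvn1 (HRD1), had 1.15 and 1.53. The ligase was counted from few UMIs in WT, 20 in plasma-like cells, with an interval of 0.42 to 1.81. Herpud1, a membrane scaffold of the complex, had 2.41 and 1.31, and the selenoprotein Selenok had 1.84 and 1.52. Of the translocon members, the channel subunit Sec61b had 1.39 and 1.31. Ssr1, of the translocon-associated complex, had 0.05 in WT and -0.14 in AD, and 0.69 and 0.52 without immunoglobulin UMIs.

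**Figure D2:**
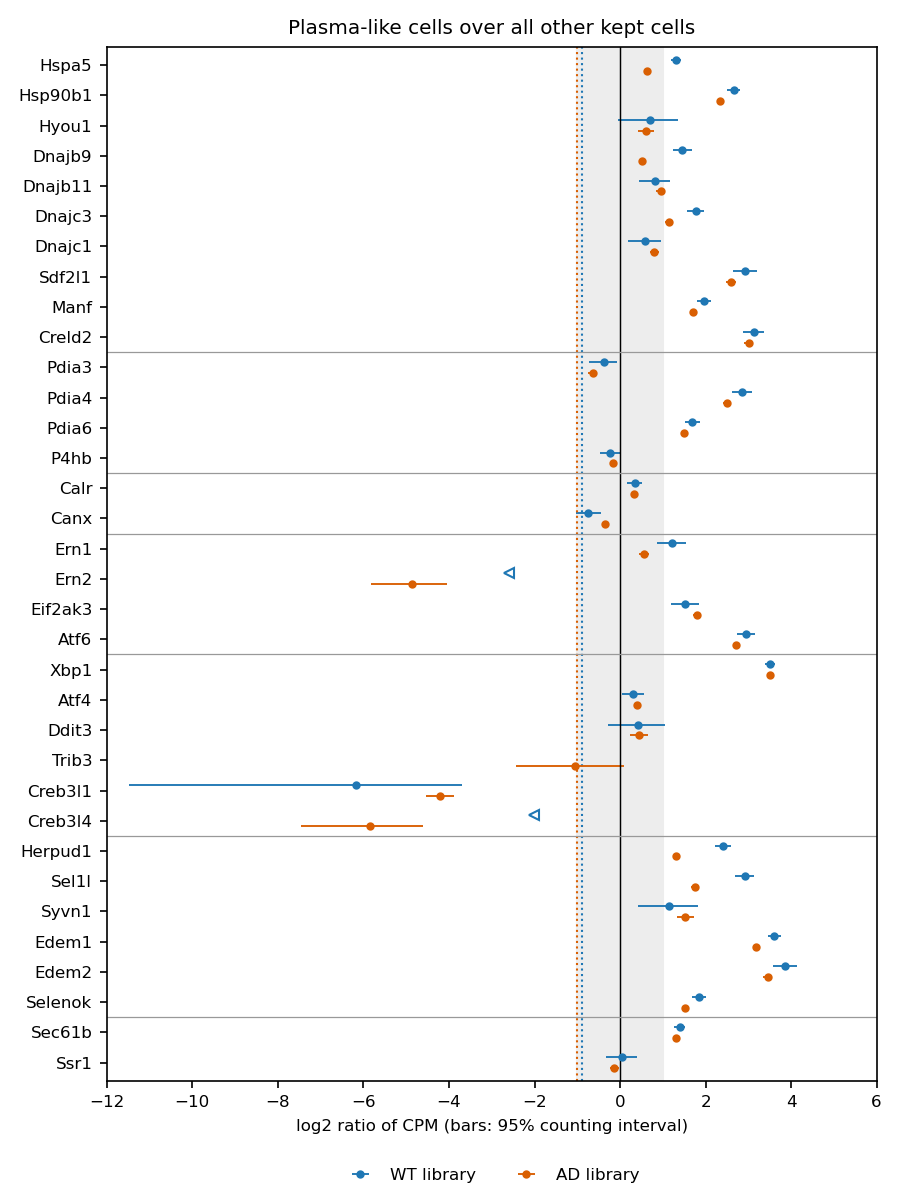
Log2 ratio of each member's CPM in plasma-like over all other kept cells, with 95% counting intervals, for WT (blue) and AD (orange). The grey band marks ratios under 2-fold, dotted lines mark the medians of all genes at -0.89 and -1.0, and open triangles are bounds where plasma-like cells had 0 UMIs; the ERAD members all lie to the right of the band, and Ern2, Creb3l1 and Creb3l4 to its left.

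B cells are the lineage from which plasma cells form, and they gave a closer reference. In WT, 19 of 29 members tested were higher in plasma-like than in B-like cells and 2 lower, against 12.8% and 45.7% of all genes. In AD, 20 of 31 were higher and 0 lower, against 14.6% and 35.6%. The median log2 ratio of the members was 1.97 and 1.73, and that of all genes was -0.86 and -0.55, and 18 members were higher in both. Xbp1 was at 37.0 CPM in WT and 66.5 in AD B-like cells, giving log2 ratios of 5.54 and 5.36. Edem2 followed with 5.33 and 4.38, Creld2 with 5.08 and 4.06 and Sdf2l1 with 5.03 and 4.63. Hspa5 was already at 820 and 807 CPM in B-like cells, with ratios of 0.82 and 0.18, and Dnajb9 had 0.59 and 0.06.

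The 2 members lower in WT plasma-like than in B-like cells were Eif2ak3 and Ddit3. Eif2ak3 was at 203 CPM in plasma-like and 479 in B-like cells of WT, and at 308 and 410 in AD, with log2 ratios of -1.24 and -0.41. Ddit3 had -1.23 in WT and -0.40 in AD. Atf4 had -0.12 in both libraries. Without immunoglobulin UMIs the WT values of Eif2ak3 and Ddit3 were -0.60 and -0.60, while their AD values turned to 0.25 and 0.26 and those of Atf4 to 0.52 and 0.54. Of the 6 ERAD members, all but Syvn1, at 0.48 and 0.57, were higher past 2-fold in both libraries.

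Goblet-like cells were compared with the other epithelial classes. In both libraries 26 members were higher past 2-fold and 0 lower, of 33 tested in WT and 34 in AD. Among all genes 7.69% were higher and 14.7% lower in WT, and 8.88% and 13.8% in AD. The median log2 ratio was 1.46 and 1.32 for the members and -0.14 and -0.09 for all genes. The same 23 members were higher in both libraries. All 4 disulfide isomerases and both translocon members were among them.

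**Figure D3:**
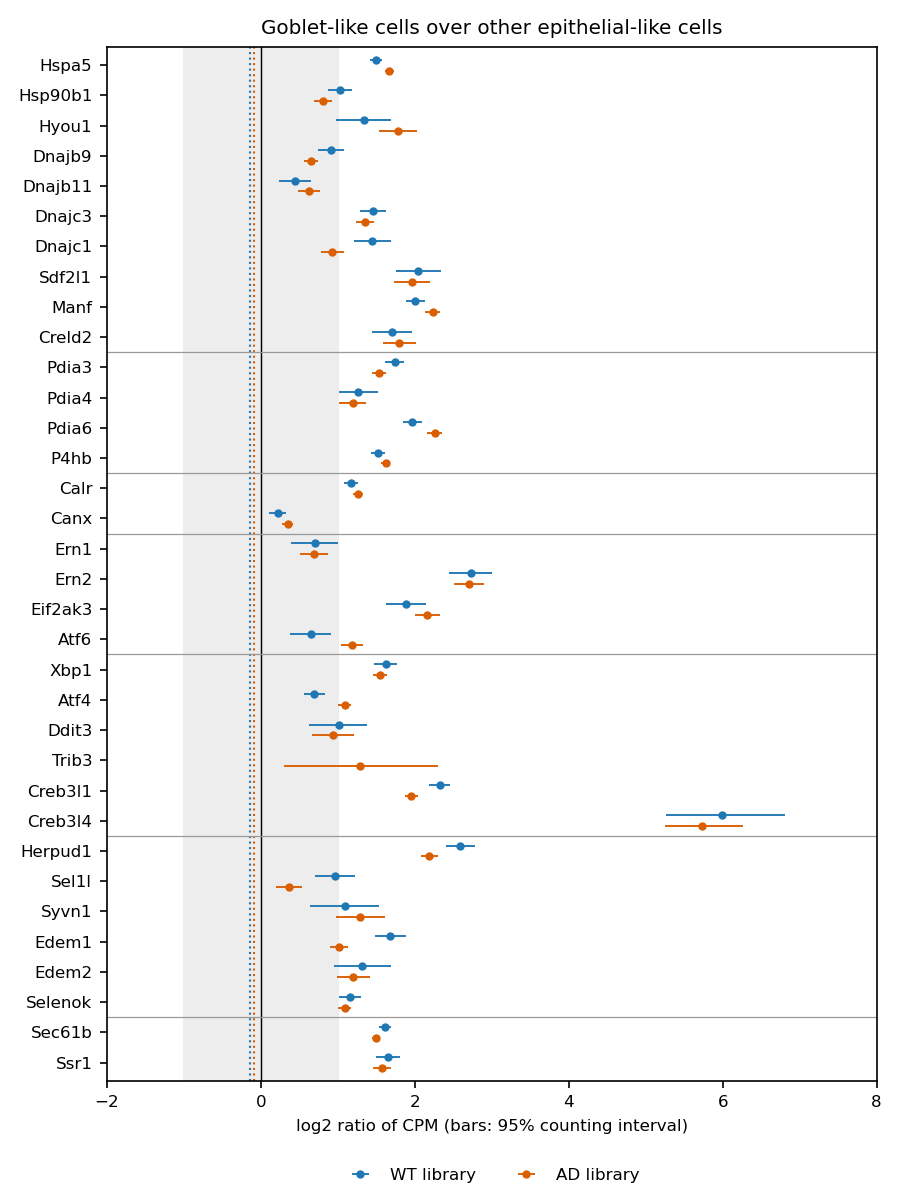
Log2 ratio of each member's CPM in goblet-like over other epithelial-like cells, with 95% counting intervals, for WT (blue) and AD (orange); the grey band marks ratios under 2-fold and dotted lines the medians of all genes. No member lies past 2-fold on the low side, and Creb3l4, at 5.99 and 5.74, stands farthest to the right.

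Among the transcription factors and sensors, Creb3l4 and Ern2 had the highest goblet-like ratios of all members in both libraries. Creb3l4 was at 154 CPM in goblet-like and 2.43 in other epithelial cells of WT, and at 156 and 2.93 in AD. Its log2 ratios were 5.99 (5.26 to 6.81) and 5.74 (5.25 to 6.27). Creb3l1 was at 540 CPM in both goblet-like classes, against 108 and 139 (2.32 and 1.96). Ern2 was at 163 against 24.6 CPM in WT and 151 against 23.2 in AD (2.73 and 2.70). Xbp1 had ratios of 1.62 and 1.55 and Eif2ak3 of 1.89 and 2.16. Ern1 had 0.70 and 0.69 and was not called. Atf6 was called in AD only, at 1.18 against 0.65 in WT.

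Among the folding genes, Manf was at 599 against 149 CPM in WT and 448 against 95.3 in AD (log2 ratios 2.01 and 2.23). Pdia6 had 1.97 and 2.26, Pdia3 had 1.74 and 1.54, and P4hb had 1.52 and 1.62. Hspa5 was past 2-fold in both, at 1153 against 409 and 1018 against 320 CPM (1.5 and 1.67). Calr, which was not called in plasma-like cells, had 1.17 and 1.27 here, while Canx had 0.22 and 0.35. Of the ERAD members, Herpud1 had 2.59 and 2.19, Edem1 had 1.68 and 1.02, and Sel1l had 0.96 and 0.36 and was the ERAD member not called in either library.

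The IRE1 pair parted by class. Ern2 made up 69.8% of the UMIs of Ern1 and Ern2 in WT goblet-like cells (exact 95% interval 65.3 to 74.0) and 67.7% in AD (65.1 to 70.2). The share was 46.1% and 45.0% in the remaining epithelial cells, 15.7% and 17.7% in colonocyte-like cells and 14.8% and 26.8% in enteroendocrine-like cells. In plasma-like cells it was 0% of 81 UMIs in WT (up to 4.45%) and 1.43% in AD, and in lymphocyte-like cells 0.321% and 0.314%. The UMIs of Ern2, Creb3l1 and Creb3l4 in AD plasma-like cells were set beside goblet RNA. Muc2, the goblet mucin, was at 17597 CPM in WT and 17596 in AD goblet-like cells. In plasma-like cells it was at 115 and 413 CPM, or 0.653% and 2.35% of that. The same shares of the goblet-like levels of Creb3l1 come to 3.52 and 12.7 CPM, against 2.21 and 12.0 measured in plasma-like cells. For Ern2 they come to 1.06 and 3.55 CPM against 0 and 1.69, and for Creb3l4 to 1.01 and 3.67 against 0 and 0.704. Agr2, another goblet gene, came to 93.8 and 187 CPM on the Muc2 share, against 11.1 and 33.2 measured, so the Muc2 share is not shared by all goblet genes. On Agr2's own share of its goblet-like level (0.0769% and 0.417%), Creb3l1 came to 0.415 and 2.25 CPM and Ern2 to 0.125 and 0.629, under their measured AD levels. Creb3l4 came to 0.119 and 0.651. How much of these UMIs is goblet RNA depends on which gene sets the scale.

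Not every member peaked in a secretory class. By CPM over the 11 named classes, 19 members were highest in plasma-like cells in WT and 17 in AD, and 9 were highest in goblet-like cells in each. Ern1 was highest in lymphocyte-like cells, at 379 CPM in WT and 587 in AD. The next class was plasma-like at 179 in WT and macrophage and monocyte-like at 175 in AD, with intervals that did not overlap. Eif2ak3 was highest in B-like cells, with plasma-like cells next and no overlap of intervals. Atf6 was second highest in enteroendocrine-like cells, at 318 and 414 CPM. Dnajc1, a DnaJ cofactor of the ER membrane, was highest in lymphocyte-like cells at 230 and 207 CPM, and these overlapped the intervals of smooth muscle-like cells at 153 and 180. Canx was highest in fibroblast-like cells in WT (457 CPM) and in macrophage and monocyte-like cells in AD (542 CPM), each with an interval overlapping that of the next class. Creb3l1 was also present in fibroblast-like cells, at 108 and 143 CPM.

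Shares of cells show the same spread. After thinning, an Ern2 UMI was found in 18.0% of WT and 15.2% of AD goblet-like cells, and in 0 of 48 WT plasma-like cells, which at 3 counts allows a share with a UMI of up to 6.25% at this depth and sets no limit on cells that express the gene. In AD it was in 0.120% of plasma-like cells. A Creb3l4 UMI was in 12.0% and 14.0% of goblet-like cells and in 0% and 0.36% of plasma-like cells. An Xbp1 UMI was in 27.0% and 31.9% of goblet-like cells.

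Free or carried-over plasma RNA was gauged by Igha, the antibody heavy chain that cells other than plasma cells should hardly make. An Igha UMI was found after thinning in 12.0% of WT and 82.9% of AD goblet-like cells. Igha CPM in the named classes was 0.0428% to 0.189% of the plasma-like level in WT and 0.754% to 5.77% in AD. Each member's plasma-like CPM was scaled by that share and set beside its measured CPM in the class. Free RNA and doublets cannot be told apart in this value. The median over members was 0.0696% to 0.666% of the measured level in WT and 1.69% to 16.1% in AD. For most members in most classes the measured level was thus far above the scaled one. The exceptions past 50% among named classes were all in AD. They were Xbp1 in B-like (63.8%), lymphocyte-like (58.5%) and endothelial-like cells (65.9%), and Creld2, Edem1 and Edem2 in endothelial-like cells. In the unnamed AD cells, 29 members were past 50%, with a median of 87.2%.

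**Figure D4:**
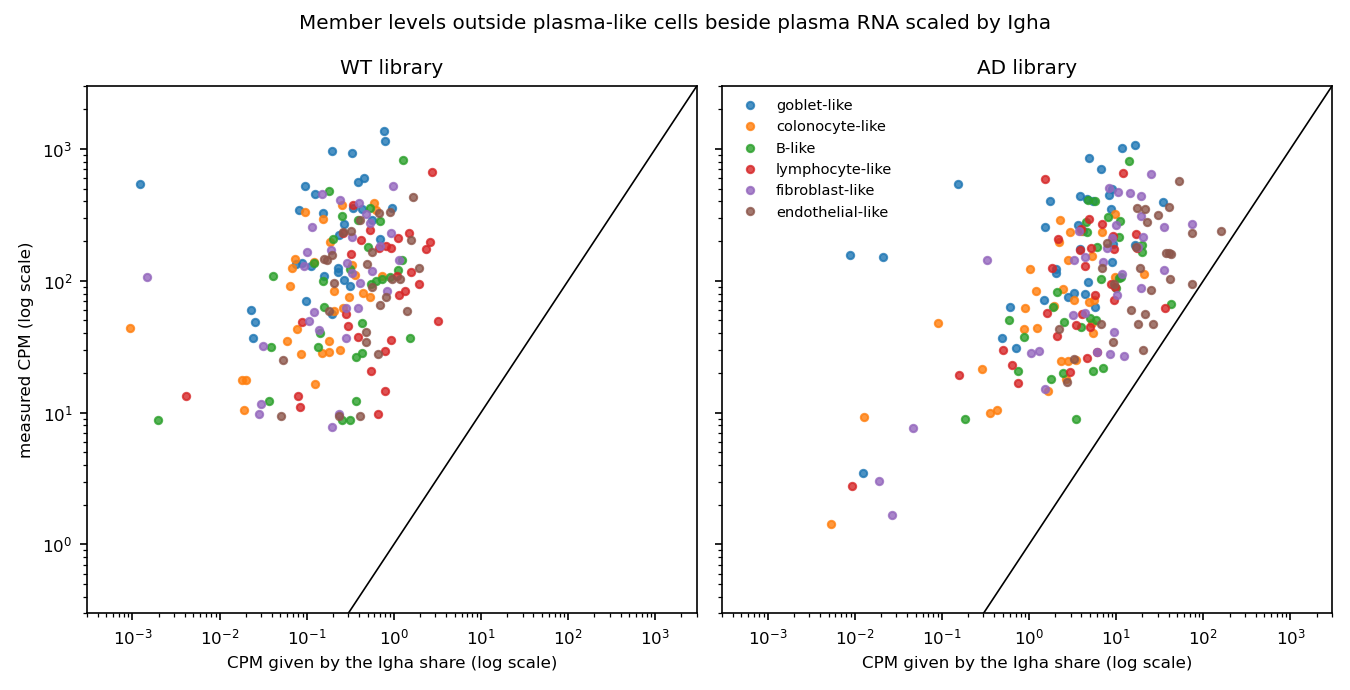
Measured CPM of the members with at least 3 UMIs (vertical, log scale) against the CPM that Igha-scaled plasma RNA would give (horizontal, log scale) in 6 classes, with the line of equality. WT points lie far above the line, and AD points lie nearer to it, the nearest of them in endothelial-like, B-like and lymphocyte-like cells.

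Between the libraries, few members differed in the secretory classes, and the shares were near or under those of all genes. A gene was called here past 1.5-fold. In plasma-like cells 3 of 31 members tested were higher in AD and 3 lower, against 21.9% and 13.8% of all genes, with a median log2 ratio of -0.15 against 0.06. Xbp1 was higher (1715 CPM in WT, 2740 in AD, log2 ratio 0.68, 0.57 to 0.78), as was Eif2ak3 (203 and 308 CPM, 0.60). Creb3l1 was called on 1 UMI against 85, with an interval of -0.08 to 7.76, beside the higher Muc2 in the AD cells. Sel1l was lower (486 and 258 CPM, -0.91, -1.12 to -0.70), as were Hspa5 (-0.67) and Ern1 (-0.62). In goblet-like cells Atf6 was higher (90.7 CPM in WT and 138 in AD, 0.61), and Hsp90b1 (288 and 190, -0.60) and Creld2 (124 and 79.4, -0.65) were lower. That is 1 and 2 of 33, against 9.32% and 10.2% of all genes. Ern2 had a log2 ratio of -0.11, Creb3l1 of 0.00 and Creb3l4 of 0.02 in goblet-like cells. Agr2, a goblet disulfide isomerase outside the members, was lower there (14365 and 7966 CPM, -0.85).

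Of 19 genes of cell handling and the immediate early response, 5 were higher and 2 lower in AD in plasma-like cells, and 5 and 0 in goblet-like cells, beside the 21.9% and 9.32% of all genes that were higher. Among the other classes, 12 of the 19 were higher in endothelial-like and 9 in the remaining epithelial cells, 0 in colonocyte-like cells and 2 to 5 in the rest. Lower were 4 in B-like, 3 in colonocyte-like, 1 each in enteroendocrine-like and smooth muscle-like cells and 0 in the others. Of all genes, 12.8% were higher in endothelial-like and 11.5% in the remaining epithelial cells, and 8.11% were lower in B-like and 6.22% in colonocyte-like cells. The part of these 19 genes in the members' differences was not tested. The mitochondrial share and the Igha level also differed between the libraries. They cannot be told apart from genotype, because each genotype is 1 library.

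**Figure D5:**
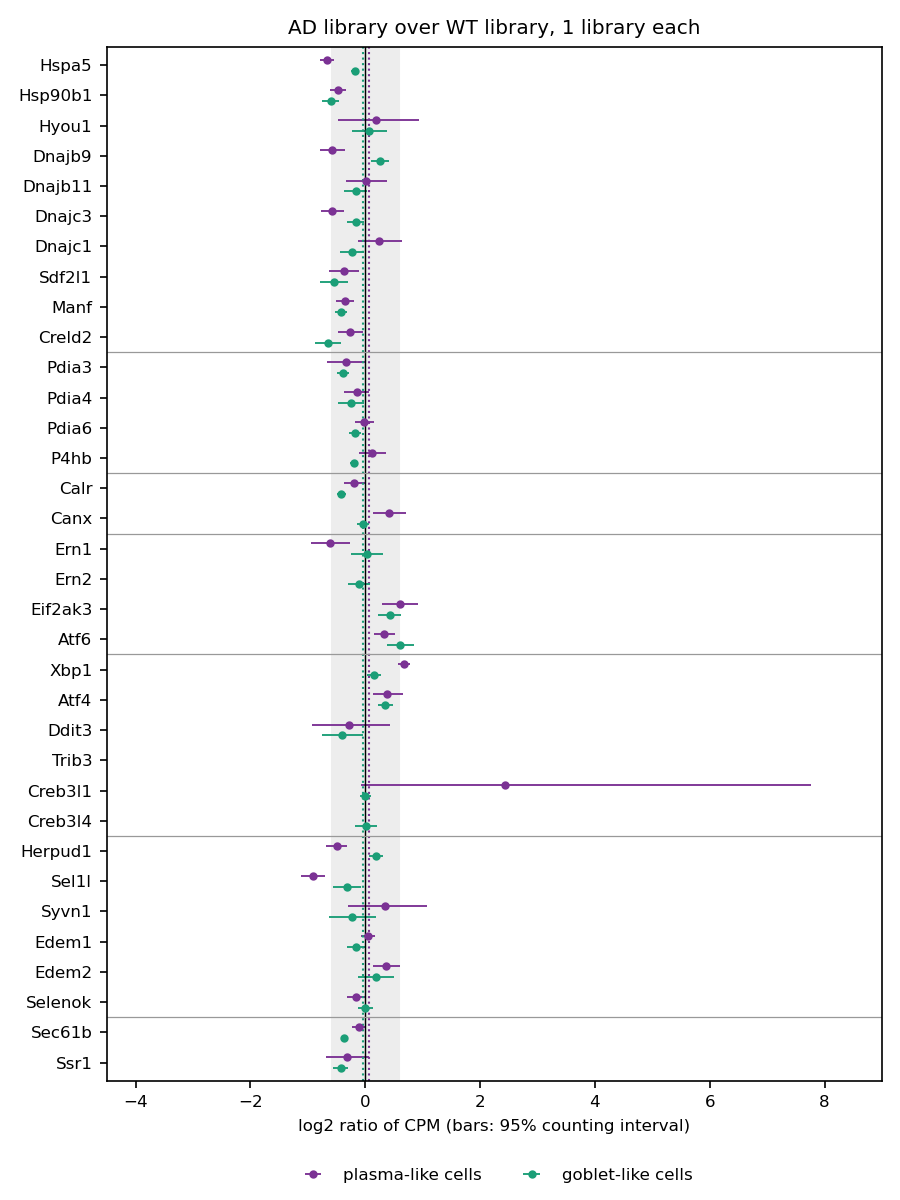
Log2 ratio of each member's CPM in AD over WT, in plasma-like (purple) and goblet-like cells (green), with 95% counting intervals and a grey band for ratios under 1.5-fold. Most members lie within the band, with Sel1l lowest and Xbp1 outside it on the high side in plasma-like cells.

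The other 9 classes gave 43 pairs of member and class that were higher in AD and 17 that were lower. In colonocyte-like cells 0 of 32 members were higher and 6 lower (13% and 6.22% of all genes): Hyou1, Dnajb11, Manf, Creld2, Pdia6 and Calr. All of these are folding genes, with Calr at 374 CPM in WT and 237 in AD. In enteroendocrine-like cells 6 of 28 were higher and 1 lower (13.9% and 13%), among them Herpud1 (97.4 and 178 CPM) and Sel1l. In the remaining epithelial cells 4 of 33 were higher and 1 lower (11.5% and 9.28%), and here 172 of 286 WT cells came from a cluster of crypt markers and 412 of 553 AD cells from another cluster. In B-like cells 6 of 26 were higher and 4 lower (15.6% and 8.11%), with Ern1 at 63.4 CPM in WT and 17.9 in AD. In lymphocyte-like cells 6 of 30 were higher and 1 lower (15.7% and 9.83%), with Ern1 at 379 and 587 CPM. Of the WT lymphocyte-like cells, 182 of 247 came from the Cd8a cluster, which gave 181 of 466 in AD.

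Counts for the stromal and myeloid classes follow. In macrophage and monocyte-like cells 7 of 26 members were higher and 0 lower (19.9% and 13.1%). In fibroblast-like cells 6 of 31 were higher and 1 lower (11.6% and 8.04%), with Sdf2l1 at 7.75 CPM in WT and 28.7 in AD. In endothelial-like cells 7 of 21 were higher and 3 lower (12.8% and 14.1%), and in smooth muscle-like cells 1 of 15 was higher and 0 lower (17% and 12.9%). Atf6 was higher in 4 of these 9 classes, the B-like, lymphocyte-like, macrophage and monocyte-like and endothelial-like cells. With the Igha-scaled plasma RNA taken off, the 9 classes gave 27 higher and 25 lower pairs of 236 tested. The share of all genes after this step is not given here for these classes. Endothelial-like cells then had 1 member higher (Pdia6) and 4 lower (Dnajc3, Dnajc1, Ern1 and Sel1l) of 19 tested. Of the 4, Dnajc1, Ern1 and Sel1l were lower before it too. The median log2 ratio of the members there went from 0.39 to -0.09. B-like cells had 3 higher and 4 lower of 26, and fibroblast-like cells 3 and 1 of 31. Macrophage and monocyte-like cells had 5 and 1 of 25, smooth muscle-like cells 0 and 0 of 13, and colonocyte-like cells 0 and 9 of 32. Xbp1 then went from 0.85 to -0.56 in B-like, from 0.31 to -0.86 in lymphocyte-like and from 0.94 to -0.58 in endothelial-like cells. It stayed positive but was no longer past 1.5-fold in fibroblast-like (0.89 to 0.43) and macrophage and monocyte-like cells (1.03 to 0.13).

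The rest of the secretory pathway was read from lists outside the 34 members, with the same 2-fold call. The shares of all genes given above for each comparison (5.83% and 7.27% higher in plasma-like cells, 7.69% and 8.88% in goblet-like cells) are the background of these counts. For lower calls these shares are 41.3% and 49.9% in plasma-like cells and 14.7% and 13.8% in goblet-like cells. Of 21 genes of the translocon and signal peptidase, 9 were higher and 0 lower in plasma-like cells in WT, and 10 and 1 in AD, led by Tram2 (log2 ratios 4.17 and 3.45) and the signal peptidase subunit Sec11c (2.82 and 2.61). In goblet-like cells 15 of 20 and 12 of 21 were higher. Other ERAD genes were higher in plasma-like cells for 6 and 5 of 18 and lower for 2 and 1, led by Derl3, a channel protein, at 292 against 1.34 CPM in WT and 236 against 6.07 in AD. Of 27 genes of ER to Golgi transport, 2 were higher in plasma-like cells in each library, a share near that of all genes. Lower were 3 in WT and 2 in AD, a share under that of all genes. The median log2 ratio of the list was -0.01 and -0.24, against -0.89 and -1.0 for all genes. In goblet-like cells 19 and 15 were higher and none lower. The KDEL receptor Kdelr3, which returns chaperones to the ER, had goblet-like log2 ratios of 5.20 and 4.50. Oligosaccharyltransferase genes were higher for 1 of 14 and 1 of 15 in plasma-like cells and lower for 1 in each, and higher for 8 and 7 of 14 in goblet-like cells.

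Of the other isomerases, 8 of 22 were higher and 8 lower in plasma-like cells in WT, and 6 and 8 in AD, with the lower calls under the 41.3% and 49.9% of all genes. In goblet-like cells 10 of 21 and 8 of 22 were higher and none lower. Txndc5 was at 3.59 and 3.31 and the peroxiredoxin Prdx4 at 3.12 and 3.16, while Agr2 was at -7.81 and -5.99. Goblet-like cells had Agr2 at 5.82 and 4.86, the prolyl isomerase Fkbp11 at 5.07 and 5.08 and the sulfhydryl oxidase Qsox1 at 4.34 and 4.53. Among the PERK and integrated stress response genes, 5 were higher and 3 lower of 21 in WT plasma-like cells, and 6 and 7 of 22 in AD. The amino acid transporter subunit Slc3a2 was at 2.80 and 2.74 there and the serine synthesis enzyme Phgdh at 2.55 and 2.94. The glutathione-degrading enzyme Chac1 was at 2.64 in AD. In WT, Chac1 had 16 UMIs in plasma-like and 12 in other cells, under the minimum for a test. Its WT value of 5.14 (3.96 to 6.35) was therefore not a call. The stress-induced regulator Nupr1 was at -4.54 and -4.90 in plasma-like cells, against 3.95 and 3.66 in goblet-like cells. Among the further stress transducers, 5 of 14 and 3 of 16 were higher and 2 and 5 lower in plasma-like cells, and Bhlha15 (MIST1), a regulator of secretory cells, was higher in both classes, at 3.34 and 2.50 in plasma-like and 4.26 and 4.91 in goblet-like cells. Cytosolic heat shock genes had few calls. Of 14, 1 was higher and 4 lower in plasma-like cells in WT, and 0 and 2 in AD. These lower calls too were under the 41.3% and 49.9% of all genes. In goblet-like cells none was past 2-fold in either library, whereas each of the ER lists had higher calls there.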

How the data were processed

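The authors deposited 1 table of UMI counts per gene and cell barcode for each library. The notes on processing given by the submitters name build mm10 and the tools STAR, Seurat 3.0.2 and Cell Ranger 3.0.1. Whether animals were pooled is not given in the sources used here. A barcode was kept from 500 UMIs and 200 genes on where mitochondrial UMIs made up 25% or less. Both libraries were clustered together with scanpy 1.11.5 (2000 variable genes without the members and other listed genes, 30 components, 15 neighbours, Leiden resolution 1), and clusters were named from marker lists. Raw counts were summed per class and library and given as CPM with exact Poisson intervals, and ratios with exact conditional 95% intervals. These cover counting error only. No p-value was computed, since cells are not replicates. A gene with under 30 UMIs over both sides was not tested. The 2-fold calls were checked on simulated data, and the 1.5-fold calls were not. False calls were counted there only in genes with more UMIs than the 30 required here. The members and gene lists were chosen with earlier results of these data known. All 34 members could be named. From each other list the rule took the 3 genes with the highest and 2 with the lowest AD ratio. Ddit3 had 2 feature rows, and the second held 0 UMIs. There were 19 planned and 3 added alternatives.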

Additional observations from a re-analysis of the deposited data

Results flagged for a closer look

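For 9 members the AD over WT log2 ratio lay past 1.5-fold in opposite directions in 2 classes, with both counting intervals off 0. The difference between the classes was not tested, and with 1 library per genotype none of these has a replicate check. In single classes, 9.32% to 21.9% of all genes were higher in AD past 1.5-fold and 6.22% to 14.1% lower. The share of all genes that meet the rule of opposite directions is not given here. Whether 9 members is more than that share would give was therefore not tested. Ern1, which encodes IRE1α, had 0.63 (0.44 to 0.83) in lymphocyte-like and -1.83 (-2.73 to -0.97) in B-like cells. Dnajc1, a DnaJ cofactor, had 0.69 (0.43 to 0.94) in the remaining epithelial and -1.48 (-2.03 to -0.94) in B-like cells. Dnajb11, another cofactor of HSPA5, had 1.08 (0.17 to 2.12) in macrophage and monocyte-like and -1.03 (-1.97 to -0.10) in B-like cells. B-like cells were thus the low side for 3 of the 9. For Dnajc1, most remaining epithelial cells came from different clusters in the 2 libraries, and its value there turned to -0.41 under a mitochondrial limit of 10%.

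Colonocyte-like cells were the low side for 3 others. The chaperone Hyou1 had 1.60 (0.65 to 2.71) in fibroblast-like and -0.84 (-1.51 to -0.14) in colonocyte-like cells, where it turned to 0.17 under the 10% limit. Manf had 0.60 (0.31 to 0.90) in fibroblast-like and -0.66 (-0.92 to -0.40) in colonocyte-like cells. Pdia6 had 1.12 (0.35 to 1.92) in endothelial-like and -0.66 (-0.97 to -0.34) in colonocyte-like cells.

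Creld2 had 1.63 (0.26 to 3.34) in macrophage and monocyte-like and -0.70 (-1.03 to -0.38) in the remaining epithelial cells. The ERAD adaptor Sel1l had 1.01 (0.20 to 1.86) in enteroendocrine-like and -0.91 (-1.12 to -0.70) in plasma-like cells, and its enteroendocrine-like value turned to -0.24 under the 10% limit. Eif2ak3 had 0.60 (0.30 to 0.91) in plasma-like and -0.60 (-1.15 to -0.04) in fibroblast-like cells.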

How the results depend on the processing

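No paired analysis was possible because each genotype has 1 library. The count of members higher in plasma-like over other cells stayed at 18 to 24 in WT and 14 to 25 in AD over all alternatives, against 20 and 17, and was 20 and 17 under each of the 3 alternatives added after seeing the data. Of all genes, 3.83% to 12% were higher in WT and 4.53% to 13.5% in AD. The highest counts, 24 and 25, came without immunoglobulin UMIs, where the shares of all genes were 12% and 13.5%. Over B-like cells the count of members higher was 10 to 24 in WT and 19 to 26 in AD. In goblet-like cells it was 16 to 31 in WT and 0 to 32 in AD. For these last ranges the share of all genes is given only for the settings named below.

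Thinning to 1000 UMIs left fewer members to test. In WT goblet-like cells 16 of 23 tested were then higher, against 26 of 33 as reported, and 8.55% of all genes were. In WT plasma-like over B-like cells 10 of 18 were higher, against 19 of 29 as reported, and 8.27% of all genes were. Edem2 went to -1.22 in WT goblet-like cells. A mitochondrial limit of 10% gave 0 of 33 members higher in AD goblet-like cells, and 1.13% of all genes were. Pdia4 was at -0.07 there, Atf6 at -0.04, Trib3 at -0.30 and Creb3l1 at -0.18. Under that limit the other epithelial side held Muc2 at 9433 CPM, against 282 in the reported classes, and the 9 WT goblet-like cells gave no value. AD over WT under that limit put Sel1l at -0.24 in enteroendocrine-like cells, Hyou1 at 0.17 in colonocyte-like cells and Dnajc1 at -0.41 in the remaining epithelial cells.

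AD over WT in plasma-like cells, 3 members were higher as reported, 5 after thinning and 1 past 2-fold. Of all genes, 21.9%, 22.4% and 12.1% were higher there in the same order. In the same cells 3 members were lower as reported, 5 with the 10% limit and 5 without mitochondrial UMIs. Without the deepest 5% of cells 6 were lower, and past 2-fold 0. Of all genes, 13.8%, 15.4%, 14.5%, 14.7% and 5.06% were lower in that order. In goblet-like cells 1 member was higher as reported, 0 at resolution 2, 0 without mitochondrial UMIs and 3 after thinning. With Igha-scaled background taken off 0 were higher, past 2-fold 0 and with no minimum of UMIs 2. Of all genes, 9.32%, 8.01%, 8.46%, 16.5%, 8.58%, 3.8% and 10.8% were higher in that order. Lower in goblet-like cells were 2 members as reported, 0 with a limit of 50% and 0 with no limit. With each library clustered on its own 1 was lower, at resolution 2 also 1 and past 2-fold 0. Of all genes, 10.2%, 10%, 9.66%, 10.1%, 11.1% and 3.42% were lower in that order.

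In the other 9 classes, 43 pairs were higher and 17 lower of 242 tested, and the number tested moved with the setting. The higher pairs became 25 of 139 after thinning, 19 of 173 with at least 100 UMIs and 67 of 303 with no minimum. They became 12 of 242 past 2-fold. With Igha-scaled background taken off they became 27 of 236, and the lower pairs 25. Under the 10% limit, which left 7 classes, the lower pairs became 11 of 191. They became 10 of 246 with a limit of 50%, 6 of 246 with no limit and 10 of 241 with libraries clustered apart. Past 2-fold they became 5 of 242, and with at least 100 UMIs 9 of 173. The shares of all genes for these pairs are not given here, and the cause of these moves was not tested. Few WT plasma-like cells (51) and few UMIs of Trib3, Hyou1 and Syvn1 limit the precision.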

Other observations

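Plasma-like cells of the AD library were also ordered by the share of immunoglobulin and J-chain UMIs in each cell and cut into 4 equal bins of 219 cells. This order was chosen after values had been seen and has no test. All members together were level, at 241, 241, 246 and 239 UMIs per 10000 UMIs other than immunoglobulin. Single members were not level. Xbp1 was at 3231, 4184, 4823 and 5578 CPM from the lowest to the highest antibody share, in CPM without immunoglobulin UMIs. Herpud1, Atf4 and Dnajb9 were the other 3 members with a value that went up at each step, with Herpud1 at 516, 698, 791 and 797 CPM.

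Other members went down. Hsp90b1 was at 1625, 1159, 959 and 824 CPM over the same bins. Dnajb11, Manf, Creld2, Pdia3, Pdia6, P4hb, Calr, Canx and Ssr1 also went down at each step, 10 members in all. The other 20 went both ways, among them the chaperones Hspa5, Hyou1, Dnajc3, Dnajc1 and Sdf2l1 and the isomerase Pdia4. The share of all genes that went up or down at each step is not given here. Whether the 4 and 10 members differ from that share was therefore not tested. The last bin over the first was 0.507 for Hsp90b1 and 1.73 for Xbp1 in AD. In WT, with 12 or 13 cells per bin, the same ratios were 0.472 and 3.37, and the 4 values of Hsp90b1 were 2265, 1034, 1842 and 1070 CPM. Some members went the other way in WT: the last bin over the first was 0.907 there for Herpud1 and 0.685 for Dnajb9, which went up in AD, and 1.16 for Creld2, which went down in AD. Median UMIs per cell went from 5701 in the first to 8614 in the last AD bin, the summed B-cell marker level from 1489 to 2218 CPM and the mitochondrial share from 6.62% to 5.79%. The part of these in the pattern was not tested.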
